A study of Homo sapiens with 8 samples.

Results

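The 55 genes described here are regulators of the cell cycle and genes whose products dividing cells need: cyclins and cyclin-dependent kinases (CDKs), CDK inhibitors, the RB and E2F factors, MYC, MYBL2 and FOXM1, the CDC25 phosphatases, replication and nucleotide synthesis genes, and mitotic genes. They were listed by what their products do, with earlier results of these data known, and found by Ensembl identifier. Of the 43869 genes with values, 54 are members, and 52 of these are among the 12701 expressed genes, which reached an rlog of 4.64 (log2 of 25 reads) in at least 1 library. The gene without values is CDKN2B, which encodes the CDK inhibitor p15. CCND2 (cyclin D2, 0.53 to 0.67 in the 4 libraries) and CDKN2C (the inhibitor p18, 3.81 to 4.35) stayed under that minimum.

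Bulk RNA-seq and ChIP-seq of acetylated histone H3 lysine 27 (H3K27ac) were compared in 4 cultures of NCI-H3122, a lung adenocarcinoma line that carries the EML4-ALK fusion kinase. Treatment-naive cells were compared with erCriz0, which evolved resistance in 0.5 µM crizotinib, erAlec0, which did so in 2 µM alectinib, and erLor0, which did so in 2 µM lorlatinib. All 4 were grown in the same medium with serum, the labels give DMSO as the treatment of every chromatin sample, and RNA was taken after a period without inhibitor, so no culture was under drug when its RNA was isolated. The resistant lines came from stepwise dose escalation, and each is 1 of several lines made with its inhibitor. Each line gave 1 RNA and 1 ChIP library, so no difference below has a replicate check and none carries a p-value. Values are the rlog of the authors, a log2 of normalized reads that is drawn toward the mean of the feature where reads are few. Changes are differences between the rlog of a resistant culture and the naive rlog, with a positive sign where the resistant culture is higher. Genes and peaks are called up from a change of 1 and down from −1, which is a factor of 2. Where 4 values of a gene follow each other they stand for naive, erCriz0, erAlec0 and erLor0 cells, and 3 values stand for the resistant lines in that order.

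Read totals cannot be recovered from rlog values, so the depth is unknown. The median RNA change of all expressed genes lay between −0.02 and 0.00 in the 3 lines. All 7 epithelial markers examined, EPCAM, CDH1, NKX2-1 and the keratins among them, were expressed in all 4 libraries. ALK, the kinase gene of the fusion, was too, at 8.18, 10.65, 9.58 and 8.10. Of 9 markers of blood, endothelial and fibroblast cells with values, only COL1A1 reached the minimum in naive and erCriz0 cells, and COL1A1 and CDH5 in erAlec0 and erLor0. PTPRC was at 0 in all 4, and the summed level of the 9 was 9.58 to 10.18 on the log2 scale. In bulk RNA, fewer cells in a phase of the cycle and less RNA per cell in that phase cannot be told apart.

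Entry into the cycle is controlled by cyclin D with CDK4 or CDK6 and by cyclin E with CDK2, which phosphorylate RB and release E2F factors. E2F factors then turn on genes for DNA replication and nucleotide synthesis, and later in the cycle MYBL2 and FOXM1 act with the MuvB complex on genes for mitosis. Transcripts of the first group peak around S phase and those of the second in G2 and M, so bulk levels of both follow how many cells are dividing. H3K27ac marks active promoters and enhancers.

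The promoters of these gene classes are known to differ in sequence, and 6 that lie wholly within an H3K27ac peak are shown because the results below turn on both classes. The first 3 belong to mitotic or late cycle genes and the last 3 to genes of replication or the RB family. Each is the stretch of 250 bases before the transcription start in RefSeq on GRCh38.p14, written 5′ to 3′ on the strand of the gene. Capitals mark the letters TTTGAA or TTCGAA (the core of a CHR, the cell cycle genes homology region used by MuvB), CCAAT (read by NF-Y) and TTTCCCGC, TTTGGCGC, TTTCGCGC or TTTGCCGC (forms of the E2F motif), on either strand, and motifs may overlap. The positions are chr15:59104896-59105145, plus strand for CCNB2, chr17:40417897-40418146, minus strand for TOP2A, chr10:128126424-128126673, minus strand for MKI67, chr18:657403-657652, plus strand for TYMS, chr2:135876444-135876693, minus strand for MCM6 and chr20:37095998-37096247, minus strand for RBL1.
CCNB2: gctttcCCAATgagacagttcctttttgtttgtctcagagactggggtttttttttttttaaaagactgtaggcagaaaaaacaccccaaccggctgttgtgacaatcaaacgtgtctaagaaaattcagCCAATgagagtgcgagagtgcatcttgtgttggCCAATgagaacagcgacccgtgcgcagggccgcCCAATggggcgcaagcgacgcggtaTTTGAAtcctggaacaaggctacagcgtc
TOP2A: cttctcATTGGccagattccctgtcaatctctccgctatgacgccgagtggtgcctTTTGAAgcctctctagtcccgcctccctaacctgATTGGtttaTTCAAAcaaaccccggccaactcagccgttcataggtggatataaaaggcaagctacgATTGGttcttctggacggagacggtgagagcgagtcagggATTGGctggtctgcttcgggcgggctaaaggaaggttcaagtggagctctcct
MKI67: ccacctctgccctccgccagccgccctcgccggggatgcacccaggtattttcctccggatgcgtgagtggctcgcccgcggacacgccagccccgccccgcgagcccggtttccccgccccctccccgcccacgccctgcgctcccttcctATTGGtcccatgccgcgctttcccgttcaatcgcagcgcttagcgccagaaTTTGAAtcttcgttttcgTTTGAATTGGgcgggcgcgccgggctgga
TYMS: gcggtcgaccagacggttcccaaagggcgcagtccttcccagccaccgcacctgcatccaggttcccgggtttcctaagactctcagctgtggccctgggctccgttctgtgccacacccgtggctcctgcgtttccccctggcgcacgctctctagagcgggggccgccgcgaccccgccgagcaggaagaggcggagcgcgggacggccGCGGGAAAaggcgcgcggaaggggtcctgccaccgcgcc
MCM6: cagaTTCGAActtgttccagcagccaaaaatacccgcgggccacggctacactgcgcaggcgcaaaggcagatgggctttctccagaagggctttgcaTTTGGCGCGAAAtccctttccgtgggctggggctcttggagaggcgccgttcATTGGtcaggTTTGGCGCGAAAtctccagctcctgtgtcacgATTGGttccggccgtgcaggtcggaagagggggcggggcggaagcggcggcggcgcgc
RBL1: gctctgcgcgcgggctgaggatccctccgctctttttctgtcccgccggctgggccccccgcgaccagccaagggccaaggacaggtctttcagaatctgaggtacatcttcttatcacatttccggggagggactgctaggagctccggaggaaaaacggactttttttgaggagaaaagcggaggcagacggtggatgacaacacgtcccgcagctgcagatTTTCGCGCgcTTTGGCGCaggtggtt

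Promoters on chromosome 8, where CCNE2, MCM4 and MYC lie, were left out of the search and of its background. Promoter sequences were found for 33 of the members, and 19 of them lay wholly within the promoter peak. CHR letters occurred in 7 of 12 promoters of mitotic genes, S to M cyclins and MKI67, in 2 of 9 replication and nucleotide synthesis promoters, and in 14.3% of the 35097 promoters searched. CCAAT was in 11 of those 12, in 6 of those 9 and in 32.0% of all promoters. The E2F letters were in 0 of those 12, in 6 of those 9 and in 2.79% of all. These matches describe the letters in the window and are not evidence of binding.

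Across the 52 expressed members, RNA was mostly lower in the resistant lines. The median change was −0.54, −0.84 and −0.51 in erCriz0, erAlec0 and erLor0, where the median of all expressed genes was −0.02, 0.00 and 0.00. Lower values than in naive cells were seen for 47 members in erCriz0 (52.1% of expressed genes), 45 in erAlec0 (49.7%) and 45 in erLor0 (50.6%). In all 3 lines 42 members were lower, against 24.5% of expressed genes, and the comparisons share the naive library, so 1 high naive value lowers all 3 changes of a gene. Counted at the limit, 5 members were down in erCriz0 (1.65% of expressed genes), 21 in erAlec0 (2.07%) and 1 in erLor0 (0.74%). One member, CDKN1C, was up in erCriz0 (2.65% of expressed genes), and none was up in erAlec0 (2.46%) or erLor0 (1.1%). In total 22 members were down in some line, against 3.41% of expressed genes. Several sat at the limit itself: RRM2 and FOXM1 in erCriz0, and RBL1 and CDT1 in erAlec0, had changes of −1.0, and GINS2 in erLor0 fell just short of it, also at −1.0. With the RNA centred on the median expressed gene 3 members were down in erCriz0 (1.29% of expressed genes). Relative to neighbours within 5 Mb 3 were down there (MYBL2, CDT1 and TYMS, against 1.15%) and 2 in erLor0 (PCNA and GINS2, against 0.63%). At a 1.5-fold limit the 3 counts were 24, 36 and 21, against 8.52%, 8% and 3.65% of expressed genes.

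**Figure D1:**
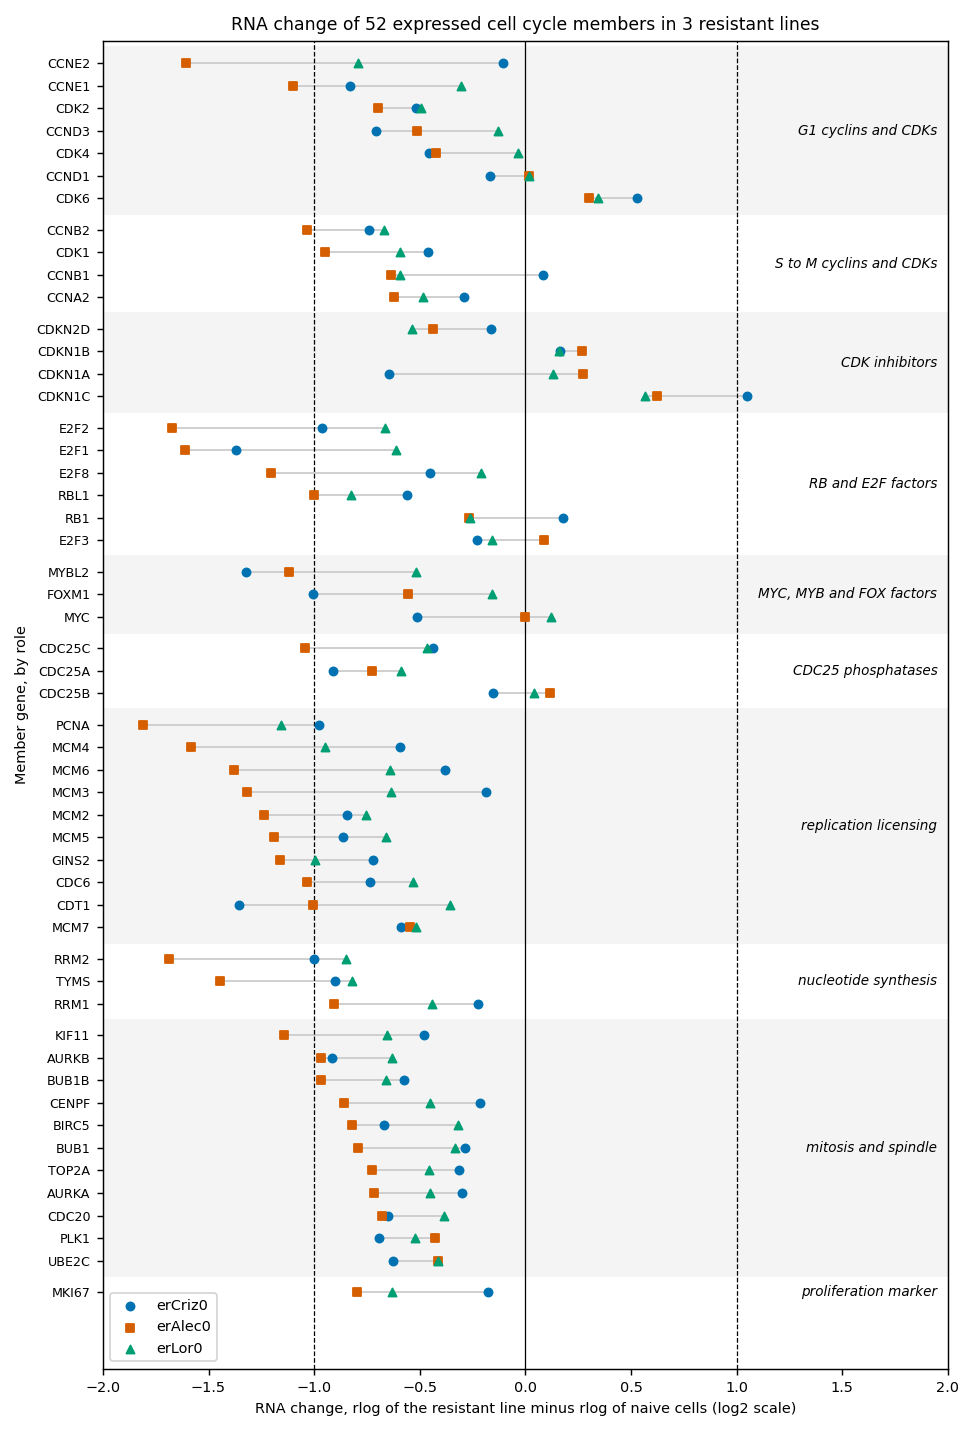
RNA change of the 52 expressed members (rows, grouped by role) in erCriz0 (circles), erAlec0 (squares) and erLor0 (triangles), as the rlog difference from naive cells on a log2 scale, with 1 library per line. Dashed lines mark −1 and 1. The squares of erAlec0 lie furthest to the left for most replication, nucleotide synthesis and mitotic genes, and CDKN1C, CDK6 and CDKN1B lie to the right of 0 in all 3 lines.

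The resistant lines were not alike in depth of the fall. erAlec0 had the lowest RNA of the 4 lines for 34 members (26.7% of expressed genes), erCriz0 for 14 (33%) and erLor0 for 1 (17.8%), CDKN2D. Compared directly, erAlec0 was below erLor0 for 44 of 52 members (49.5% of expressed genes), with a median difference of −0.36. It was below erCriz0 for 37 (50.3%), with a median difference of −0.33. Over expressed genes these median differences were 0.003 and −0.003. Between erLor0 and erCriz0 the median difference was 0.07. The 14 members with their lowest value in erCriz0 included MYC, MYBL2, FOXM1, CDT1, CDKN1A, CCND1, CCND3, CDK4 and PLK1.

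Among the G1 cyclins and CDKs, cyclin D1 was level. CCND1, the cyclin that couples growth signals to CDK4 and CDK6, had an rlog of 15.32 in naive and 15.16, 15.34 and 15.34 in erCriz0, erAlec0 and erLor0 cells. CCND3 (cyclin D3) was 7.97, 7.26, 7.45 and 7.84 in the same order. CDK6 was higher in each resistant line, at 8.58 in naive against 9.11, 8.88 and 8.92, while CDK4, the other kinase of cyclin D, went from 9.5 to 9.04, 9.07 and 9.46.
The cyclins E, which activate CDK2 at the start of S phase, were down only in erAlec0. CCNE2 was 7.62 in naive and 7.51, 6.01 and 6.82 in erCriz0, erAlec0 and erLor0, a difference of −1.50 between erAlec0 and erCriz0. CCNE1 was 5.81, 4.98, 4.71 and 5.51. CDK2 differed from naive by −0.70 in erAlec0 and by −0.52 and −0.50 in erCriz0 and erLor0.

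Of the 4 expressed CDK inhibitors, 2 were higher than naive in all 3 resistant lines, against 22.5% of expressed genes, too small a count to set the group apart. CDKN1C (ENSG00000129757.13, chr11:2883213-2885773 of hg38, minus strand), which encodes p57, was 6.76 in naive cells and 7.81, 7.39 and 7.33 in erCriz0, erAlec0 and erLor0, higher in each. CDKN1B, which encodes p27, was 9.97 in naive and 10.13, 10.24 and 10.13 in the resistant lines, within 0.27 of naive. CDKN1A encodes p21, the p53 target that blocks CDK2, and its rlog was 10.27, 9.62, 10.54 and 10.40, lower in erCriz0 alone. CDKN2D (the inhibitor p19) had changes of −0.16, −0.44 and −0.54. The genes beside CDKN2B on chromosome 9, MTAP (1.72 to 2.04) and the antisense transcript CDKN2B-AS1 (1.88 to 2.21), stayed under the minimum in all 4 libraries.

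The E2F factors that activate S phase genes had some of the deepest falls. E2F1 was 7.40 in naive and 6.03, 5.79 and 6.79 in erCriz0, erAlec0 and erLor0, and E2F2 was 7.25, 6.28, 5.57 and 6.58. E2F8, a repressor that is itself an E2F target, was 8.71, 8.26, 7.51 and 8.5. In all 3 genes erAlec0 was lowest and erLor0 closest to naive. E2F3, the remaining activator on the list, had changes of −0.23, 0.09 and −0.16. RB1, which encodes the RB protein, was 10.53 in naive and 10.71, 10.26 and 10.27 in the resistant lines, whereas its relative RBL1 (p107, an E2F target) was 9.20, 8.64, 8.20 and 8.38.

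The order of the lines was different for the factors that act later. MYBL2, which works with MuvB in G2, was 9.94 in naive and 8.61, 8.82 and 9.42 in erCriz0, erAlec0 and erLor0. FOXM1, the forkhead factor of mitotic genes, was 10.95, 9.95, 10.40 and 10.80. Both were lowest in erCriz0 and closest to naive in erLor0. MYC was 11.68, 11.17, 11.68 and 11.80, level in erAlec0 while most replication genes were down there. MYBL2 lies on chromosome 20, where all 7 members (RBL1, E2F1, MYBL2, CDC25B, PCNA, AURKA and UBE2C) had expressed neighbours within 5 Mb with median changes of −0.39 to −0.19 in erCriz0. Taken relative to those neighbours, the erCriz0 changes of E2F1 and MYBL2 were −0.98 and −1.01, and a part of copy number in them was not tested. Over all members the median of such regional medians was −0.06, 0.02 and 0.00 in erCriz0, erAlec0 and erLor0.

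**Figure D2:**
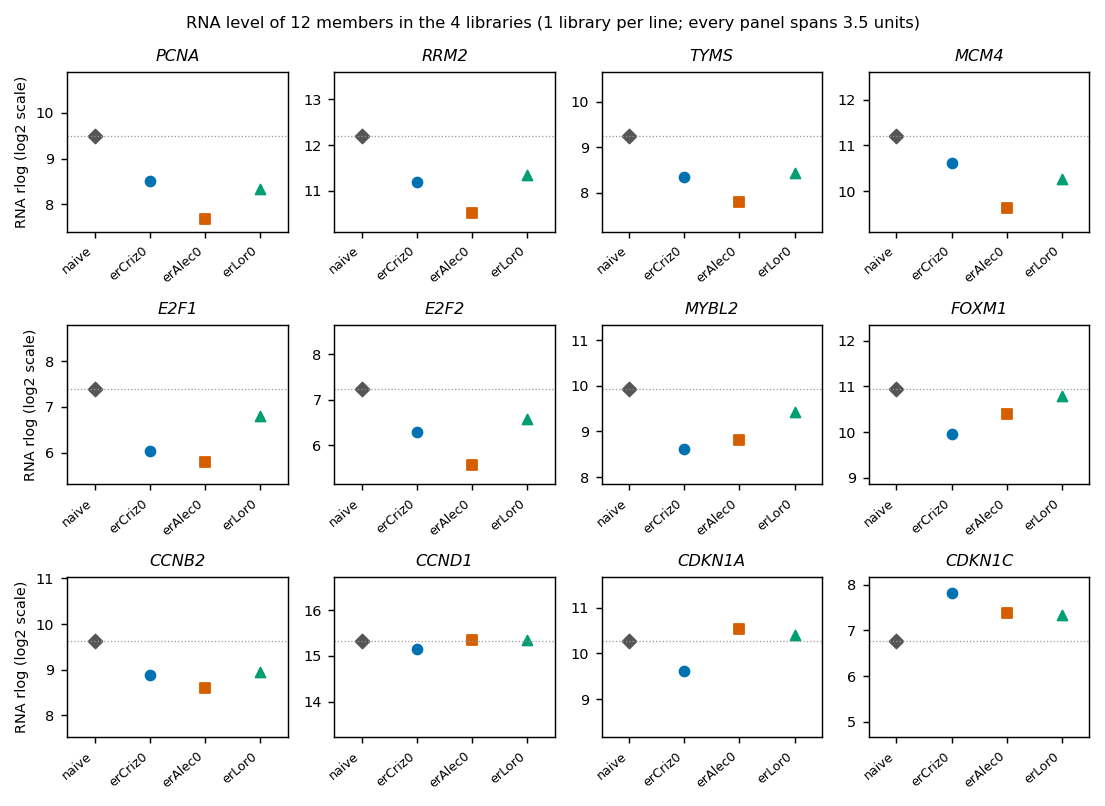
RNA rlog (log2 scale) of 12 members in naive cells (diamonds), erCriz0 (circles), erAlec0 (squares) and erLor0 (triangles), 1 library per line, with the naive level as a dotted line and 3.5 units in every panel. PCNA, RRM2, TYMS and MCM4 are lowest in erAlec0, MYBL2 and FOXM1 are lowest in erCriz0, CCND1 is level, and CDKN1C is above naive in all 3 lines.

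Genes of the replication group, the licensing factors with the fork proteins PCNA and GINS2, moved together, with 10 of 10 lower than naive in each line. Their median change was −0.73, −1.21 and −0.65 in erCriz0, erAlec0 and erLor0, and 9 of the 10 were down in erAlec0, against 1 in erCriz0 (CDT1) and 1 in erLor0 (PCNA). PCNA (ENSG00000132646.11, chr20:5114953-5126626 of hg38, minus strand), the sliding clamp of the replication fork, was 9.5 in naive and 8.52, 7.69 and 8.34 in erCriz0, erAlec0 and erLor0. It was the only member down in erLor0 and had the largest change of any member, −1.81 in erAlec0, a level of 0.285 of naive.
The MCM2-7 helicase unwinds DNA at the fork. MCM4 was 11.21, 10.62, 9.62 and 10.26 in naive, erCriz0, erAlec0 and erLor0, and MCM6 was 9.39, 9.01, 8.02 and 8.75. MCM3 was 10.12, 9.93, 8.80 and 9.48. MCM2 (9.38, 8.54, 8.14 and 8.63) and MCM5 (9.65, 8.78, 8.46 and 8.99) were lowest in erAlec0 as well, while MCM7, which overlaps another expressed gene, had similar changes of −0.59, −0.55 and −0.52.
The loading factors differed in their lowest line. CDT1, which loads the helicase with CDC6, was 9.08, 7.72, 8.07 and 8.72, lowest in erCriz0, whereas CDC6 was 8.55, 7.82, 7.52 and 8.02, lowest in erAlec0. GINS2, a subunit of the GINS complex of the active helicase, was 6.91, 6.18, 5.74 and 5.91.

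Genes of nucleotide synthesis were lower in every line too. RRM2, the S phase subunit of ribonucleotide reductase, was 12.20 in naive and 11.20, 10.51 and 11.35 in erCriz0, erAlec0 and erLor0. TYMS, thymidylate synthase, was 9.25, 8.35, 7.80 and 8.43. RRM1, the large subunit of the reductase, which is less tied to S phase, had smaller changes of −0.22, −0.90 and −0.44.

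Cyclins and CDKs of the later cycle, and the CDC25 phosphatases that activate CDKs, were mostly lower by less. CCNB2, a cyclin of mitosis, was 9.63 in naive and 8.89, 8.59 and 8.96 in erCriz0, erAlec0 and erLor0. CCNB1 did not follow it in erCriz0, at 10.10 in naive and 10.18, 9.46 and 9.51 in the 3 lines. CCNA2 was 9.92, 9.64, 9.30 and 9.44, and CDK1, the kinase of mitosis, 9.88, 9.42, 8.93 and 9.28. CDC25C, which activates CDK1, was 7.68, 7.24, 6.64 and 7.22. CDC25A (6.75, 5.84, 6.03 and 6.16) was lowest in erCriz0, and CDC25B had changes of −0.15, 0.11 and 0.04.

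All 11 mitotic and spindle genes were lower in each line, but only 1 passed the limit, in erAlec0. Of expressed genes, 52.1%, 49.7% and 50.6% were lower in erCriz0, erAlec0 and erLor0, and 2.07% were down in erAlec0. Their median change was −0.58, −0.79 and −0.45 in erCriz0, erAlec0 and erLor0. KIF11, the kinesin that separates the spindle poles, was 10.19 in naive and 9.70, 9.04 and 9.53 in erCriz0, erAlec0 and erLor0, the only one down. AURKB, the kinase of the chromosomal passenger complex, was 8.49, 7.58, 7.53 and 7.86, and BIRC5 (survivin, of the same complex) 10.22, 9.55, 9.40 and 9.91. UBE2C and PLK1 were lowest in erCriz0, UBE2C at 8.54, 7.91, 8.13 and 8.13 and PLK1 at 10.37, 9.68, 9.94 and 9.84. MKI67, the gene of the proliferation marker Ki-67, was 13.19, 13.01, 12.39 and 12.55, with changes of −0.18, −0.80 and −0.63.

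Other genes of the cycle were also lowest in erAlec0. The S phase list is a widely used set of 43 genes, of which 30 expressed genes are not members, and it was chosen with earlier results of these data known. These 30 had median changes of −0.46, −1.14 and −0.62 in erCriz0, erAlec0 and erLor0. Down were 0, 17 and 1, against 1.65%, 2.07% and 0.74% of expressed genes. EXO1, a nuclease of DNA repair, had the deepest fall, from 8.01 in naive to 7.49, 6.44 and 7.27, and DTL, which marks CDT1 for destruction, was the one down in erLor0 (9.14, 8.58, 7.71 and 7.91). The 40 expressed genes of a G2/M list that are not members had medians of −0.30, −0.66 and −0.45. Of them 1, 5 and 0 were down, against the same shares of expressed genes. CDCA3 was down in erCriz0 and erAlec0 (8.22, 7.18, 7.11 and 7.77), and TTK, a kinase of the spindle checkpoint, went from 9.47 to 9.40, 8.29 and 8.57. TPX2, HJURP and DLGAP5 were the others down in erAlec0.

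Lists outside S phase and mitosis lay closer to the expressed genes. Of 20 expressed p53 target genes, 0 were up or down in any line, with medians of −0.10, −0.14 and −0.02. Of 8 expressed genes of the MYC family and its partners, 0 passed the limit. In any line at most 2.65% of expressed genes were up and 2.07% down, so 0 calls in lists this small are close to the background. Among 12 genes of DREAM, the repressor complex of quiescent cells, and other E2F factors, only E2F7, an atypical repressor like E2F8, was down, at 8.59, 8.16, 6.83 and 7.72. Among 24 other cyclins, CDKs and their regulators, CDK14 was up in erCriz0 (5.80 to 6.87), the inhibitory kinase PKMYT1 was down there (8.89 to 7.38), and SKP2, the ubiquitin ligase subunit for p27, was down in erAlec0 (9.02 to 7.83). Both of these last lists leaned lower, and not in erAlec0 alone. Of the 12, 9, 12 and 9 were below naive in erCriz0, erAlec0 and erLor0, with medians of −0.20, −0.22 and −0.19. Of the 24, 14, 20 and 20 were below naive, with medians of −0.12, −0.21 and −0.15. Among expressed genes 52.1%, 49.7% and 50.6% were lower.

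**Figure D3:**
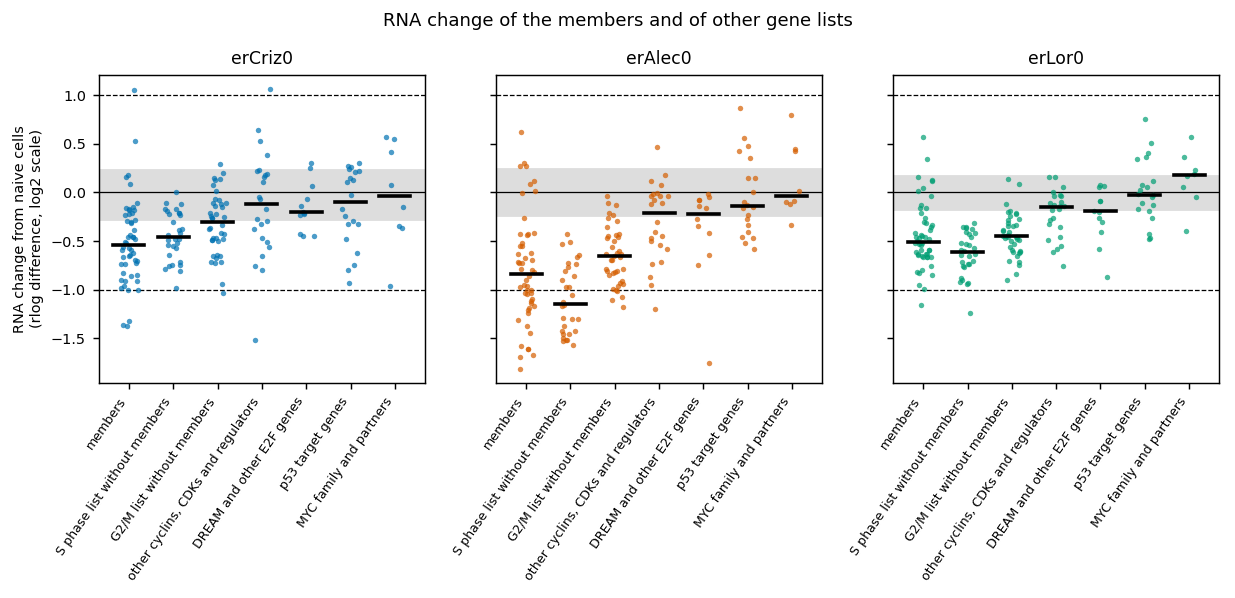
RNA change from naive cells (rlog difference, log2 scale) of the expressed genes of each list in the 3 resistant lines, 1 point per gene, with list medians as bars and the interquartile range of all expressed genes as a grey band. Dashed lines mark −1 and 1. The S phase genes that are not members have medians of −0.46, −1.14 and −0.62 in erCriz0, erAlec0 and erLor0, while the p53 and MYC lists lie around the band.

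The median promoter H3K27ac change of the members was positive in each line. In erCriz0 it lay under that of all expressed genes. Each of the 52 expressed members had a peak within 1 kb of its start, and the one of highest mean level was used. Of these, 0 were down in any line (0.341% of expressed genes in erCriz0, 1.23% in erAlec0 and 0.656% in erLor0), which is close to the background. The promoter peak was up for 2 members in erCriz0 (4.08% of expressed genes), 16 in erAlec0 (6.6%) and 5 in erLor0 (7.85%). Median promoter changes of the members were 0.26, 0.65 and 0.65, where those of 11434 expressed genes with a promoter peak were 0.34, 0.26 and 0.41, so promoter peaks as a class were higher in these ChIP libraries. Peaks higher than in naive cells were found for 42 members in erCriz0 (85.5%), 44 in erAlec0 (73.7%) and 46 in erLor0 (86.7%), so a higher promoter peak by itself does not set the members apart. The peak was higher in all 3 lines for 38 members, against 65.4% of expressed genes. The counts for erAlec0 stayed above the background under both other scalings of the peaks, with 16 and 13 members up against 6.31% and 4.75% of expressed genes. In erLor0 they moved from 5 to 12 (against 11.2%) and 3 (against 5.62%). In erCriz0 they were 2 (against 5.72%) with centring and 0 (against 2.44%) with quantile normalization, where the median of the members was 0.034 and 29 of 52 were higher than naive.

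The share of members up in erAlec0 was highest among genes of mitosis and the late cycle, but other roles had members up too. Of the 11 mitotic genes 6 were up, with a median of 1.13, and of the 4 S to M cyclins and CDKs 2 were up, with a median of 1.25. In the replication group 1 of 10 was up, with a median of 0.63. Outside the members, 8 of 38 G2/M and 4 of 28 S phase genes were up in erAlec0 (6.6% of expressed genes). In erLor0 the order was the other way, with 2 of 38 and 5 of 28 (7.85%). MKI67, whose promoter is printed above, had a promoter peak level of 5.78 in naive and 6.11, 7.62 and 6.72 in erCriz0, erAlec0 and erLor0. BIRC5 was 6.58, 7.08, 8.28 and 7.74, and CENPF, which encodes a kinetochore protein, 4.84, 5.05, 6.46 and 5.84. In these 3 promoters erCriz0 was nearest to naive and erLor0 lay between. CCNB2 was 6.48, 6.76, 8.05 and 7.60, and CCNA2 6.48, 6.54, 8.01 and 7.24. TOP2A, the topoisomerase of dividing cells, was 6.34, 6.59, 7.47 and 6.95. Changes of UBE2C, AURKB and PLK1 in erAlec0 were 1.38, 1.35 and 1.28.

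In erAlec0 2 of 6 RB and E2F promoters, 1 of 3 nucleotide synthesis promoters and MCM3 of the licensing genes passed the limit. Among expressed genes with a promoter peak 6.6% were up there. E2F8 had the largest rise, from 7.75 in naive to 8.08, 9.70 and 9.64 in erCriz0, erAlec0 and erLor0, over a peak of 6219 bases at chr11:19239991-19246209. TYMS was 7.11, 7.55, 8.42 and 7.79, and MCM3 6.36, 7.0, 7.41 and 7.02. CCNE2, which shares its promoter peak with NDUFAF6, was 6.80, 7.95, 8.01 and 8.27, high in all 3 lines, and E2F3 was 8.26, 8.72, 9.56 and 9.34. CDC6 had its strongest peak upstream of the start, at 7.45, 8.49, 8.0 and 8.27 and up in erCriz0, while the weaker peak over its start base was 4.91, 5.02, 6.07 and 5.61 and up in erAlec0. E2F1, whose peaks lie beside the start base, was lower than naive in erCriz0 and higher in the others at the stronger peak, at 6.16, 5.71, 7.08 and 7.01, and changed by −0.81, −0.06 and −0.55 at the weaker one. E2F2 was lower in all 3, at 9.98, 9.42, 9.31 and 9.93.

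**Figure D4:**
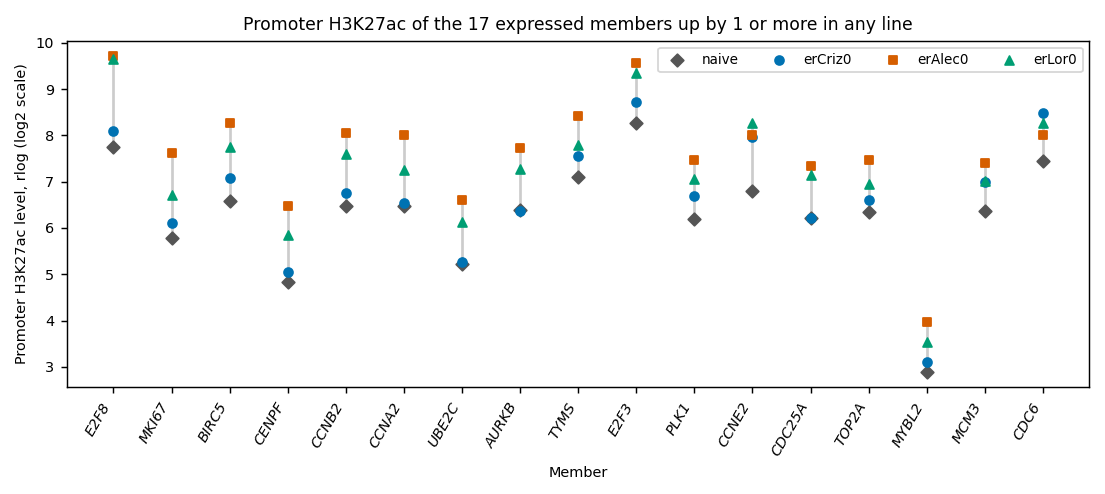
Promoter H3K27ac level (rlog, log2 scale) of the 17 expressed members whose promoter peak was up in at least 1 resistant line, in naive cells (diamonds), erCriz0 (circles), erAlec0 (squares) and erLor0 (triangles), 1 library per line. For most members naive and erCriz0 lie at the bottom and erAlec0 at the top, while CCNE2 is high in all 3 resistant lines. The CDC6 peak plotted lies upstream of the start, and it is highest in erCriz0.

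The strongest promoter peaks of the inhibitors CDKN1C and CDKN1A were among the 8 that were lower than naive in erAlec0. The peaks of CDKN1C did not move together. Its strongest, upstream of the start, was 7.40 in naive and 6.91, 6.42 and 7.11 in erCriz0, erAlec0 and erLor0. The peak over the start base was 5.71, 6.42, 6.17 and 6.94, and a weak one within the gene was 2.06, 2.58, 2.59 and 3.44, both higher in each resistant line, as the RNA was. CDKN1A was 10.37, 10.47, 9.64 and 10.45, lower in erAlec0 only. CCND1 lay in a single promoter peak of 25554 bases that changed by −0.17, −0.11 and −0.06, and its RNA was as level.

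RNA and promoter H3K27ac were then set side by side gene by gene. Lower RNA with a higher promoter peak was found for 38 of 52 members in erCriz0 (43.4% of expressed genes), 40 in erAlec0 (36.2%) and 41 in erLor0 (43.4%). Such pairs are many wherever most members have lower RNA and most have a higher promoter peak, and across the 52 members the Pearson correlation of the changes, given as a description over genes of the same libraries, was 0.14, −0.29 and −0.24 in the 3 lines. RNA down with the promoter up was found in erAlec0 for 6 members, CCNB2, CCNE2, E2F8, MCM3, MYBL2 and TYMS (0.254% of expressed genes), and for 0 in erCriz0 (0.0962%) and 0 in erLor0 (0.00875%). With 21 of the 52 members down in RNA and 16 up at the promoter in erAlec0, an overlap of this size arises if the 2 calls fall independently. The 6 therefore add no joint result to those 2 counts. Of the 21 members with RNA down in erAlec0, 20 had a higher promoter peak, with a median of 0.77, where 160 of 232 expressed genes with RNA down did, with a median of 0.32. The exception was E2F2. MYBL2, with a promoter level of 2.90 in naive and 3.97 in erAlec0 cells, was the one of the 6 below the median naive level of all peaks, 4.12.

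**Figure D5:**
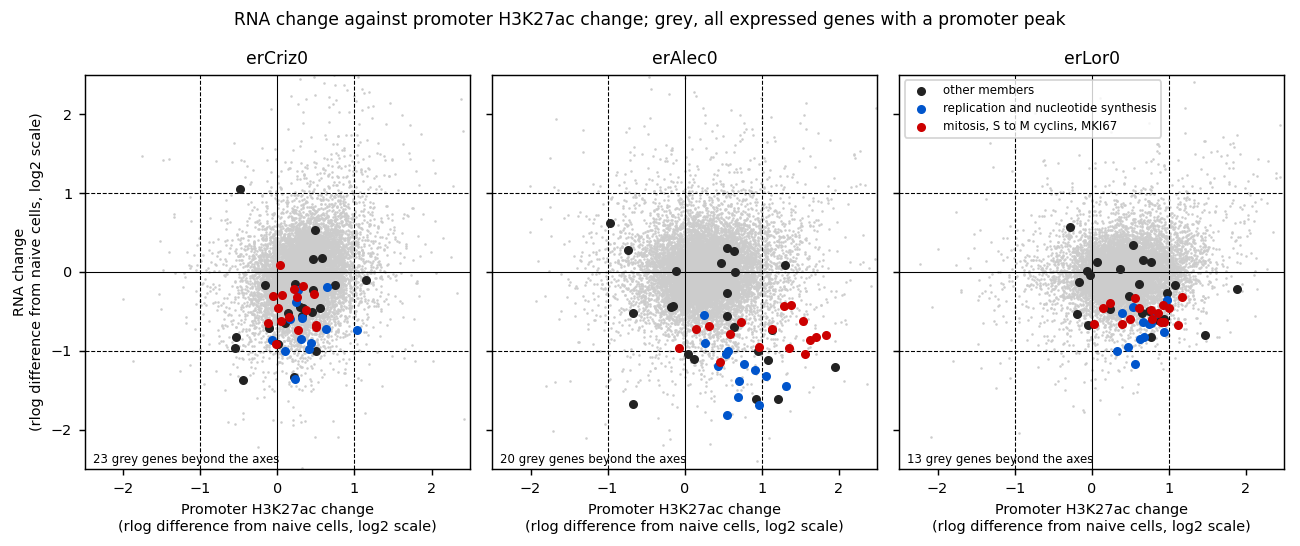
RNA change against promoter H3K27ac change (both rlog differences from naive cells, log2 scale) in the 3 resistant lines for expressed genes with a promoter peak (grey) and the 52 members, coloured as mitotic and S to M cyclin genes with MKI67 (red), replication and nucleotide synthesis genes (blue) and the others (black). Dashed lines mark −1 and 1, and genes beyond the axes are counted in each panel. In erAlec0 red and blue members fill the lower right of the panel, with 6 members beyond both limits.

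Level, sharing and position of the promoter peaks were also examined. Promoter peaks with a mean level of 5 to 8, a band chosen after the values were seen, were called more often than promoter peaks of any level, so the 26 members in that band were set beside the 3818 expressed genes in it: 1, 13 and 3 were up in erCriz0, erAlec0 and erLor0 (3.85%, 50% and 11.5%), against 7.62%, 11.9% and 14.6%. Of 40 members whose promoter peak served no other expressed gene, 1, 15 and 4 were up, against 5.18%, 7.94% and 9.58% of 8456 such genes. Relative to the promoter peaks within 5 Mb, 0, 9 and 1 members were higher by 1 or more, against 1.02%, 2.61% and 1.26% of expressed genes, and the 9 in erAlec0 were CCNA2, CCNB2, E2F8, MYBL2, AURKB, UBE2C, BIRC5, CENPF and MKI67. Without a limit, 19, 41 and 35 of the 52 lay above the median of those peaks in erCriz0, erAlec0 and erLor0. The median differences were −0.09, 0.39 and 0.28. More than 1 promoter peak was found for 15 members. The peak used lay beside the start base for 12 members, PLK1, MCM3 and MYBL2 among them, and for CDC6 and CDKN1C another peak covered it. Among the 42 members with a peak over the start base, 1, 14 and 6 were up at the strongest such peak in erCriz0, erAlec0 and erLor0. The share of all expressed genes up at such peaks was not computed, so these counts have no background of their own.

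All peaks paired with the members were counted as well. The 54 genes had 392 paired peaks within 20 kb, between 1 and 25 per gene, with median changes of −0.04, −0.06 and 0.00. Of these, 15, 43 and 24 were up in erCriz0, erAlec0 and erLor0 (5.51%, 12.2% and 6.95% of peaks paired with expressed genes) and 21, 24 and 19 were down (5.5%, 8.25% and 7.07%). In erAlec0 18 of the 43 were at the promoters, which hold 70 of the 392 peaks. After quantile normalization of the peaks the balance in erAlec0 turned, with 36 up and 41 down. The 322 peaks away from the promoters had median changes of −0.20, −0.17 and −0.09, where peaks of expressed genes at no promoter had −0.12, −0.06 and −0.08. Of the 322, 13, 25 and 15 were up in erCriz0, erAlec0 and erLor0 (5.56%, 13.1% and 6.54% of such peaks of expressed genes) and 21, 24 and 18 were down (6.47%, 9.44% and 8.25%). RB1 had 11 peaks, of which 5 were up in erCriz0 and 4 others in erAlec0, against 5.51% and 12.2% of peaks paired with expressed genes. Promoter peaks within 5 Mb of RB1 had a median change of 0.56 in erCriz0, beside 0.58 at the RB1 promoter. The highest change in erCriz0 was the RB1 peak at chr13:48600902-48601588, 1466 bases past the gene (2.96 in naive and 4.92, 3.28 and 3.12 in erCriz0, erAlec0 and erLor0). The lowest change of a member's peak in erAlec0 was at chr17:40302787-40305794 by CDC6 (−1.64).

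How the RNA reads were counted bears on a few members. Another expressed gene overlaps 12 of the 52, CCND1, CCNE2, TYMS and GINS2 among them, and the strand setting of the counting is not given in the sources used here, so reads of such pairs may be split. Among the 40 others the counts down were 4, 17 and 1 in erCriz0, erAlec0 and erLor0, against 1.65%, 2.07% and 0.74% of all expressed genes, overlapping ones included.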

How the data were processed

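The authors deposited 1 table of rlog values, on a log2 scale, for H3K27ac peaks and the genes within 20 kb of them. Per the study's methods, the authors used HISAT2 (hg38) and HTSeq-count for RNA reads, aligned ChIP reads with BWA, removed duplicates, kept a mapping quality of at least 25, counted reads over MACS2 peaks merged from 4 samples and transformed both with DESeq2. Versions are not given in the sources used here. The rlog shrinks differences of weakly covered features, so their changes are understated. The table's correlations and p-values of gene and peak pairs, and its mean columns, were not used. The erCriz1, erLor1, 2-week lorlatinib and input samples were not analysed here.

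Member genes were matched by Ensembl identifier to GENCODE release 44. The members and the lists were chosen with earlier results of these data known. Changes were taken against naive cells and counted at 1, the limit of the study. A promoter peak is the peak of highest mean level within 1 kb of the start. Counts and medians were set beside those of all expressed genes, and no test was run because each line has 1 library. Named with values were members past the limit and the highest and lowest of each role, and of other lists the genes past the limit and the extremes. Alternatives were a 1.5-fold limit, centring, quantile normalization, other level filters, promoter windows and pairing distances. Leaving out overlapping genes and shared promoters, regional medians, the level band and all alternatives for counts of promoter peaks up were added after the data had been seen. Only the limit of 1 was tried on simulated libraries. It recovered planted changes that were larger than the limit by design, and the other steps were not tested in this way. Python 3.11.15, numpy 2.4.6, pandas 2.3.3 and matplotlib 3.10.9 were used. Promoter sequences came from RefSeq on GRCh38.p14. One marker gene of the cell type check is not reported here.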

Additional observations from a re-analysis of the deposited data

Results flagged for a closer look

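Of the members' changes, 4 pairs at 3 promoters went in opposite directions from naive in 2 resistant lines and differed by more than 1, and none of these differences was tested, since each line has 1 library. The CCNE1 promoter peak, which lies beside the start base, changed by −0.54 in erCriz0 and 0.48 in erLor0, a difference of −1.03. At E2F1 the stronger of the promoter peaks, neither of which covers the start base, changed by −0.44 in erCriz0, against 0.92 in erAlec0 (a difference of −1.37) and 0.86 in erLor0 (a difference of −1.30), and the weaker one changed by −0.81, −0.06 and −0.55 in erCriz0, erAlec0 and erLor0. E2F1 RNA was lower in all 3 lines. The AURKB promoter peak changed by −0.01 in erCriz0 and 1.35 in erAlec0, a difference of −1.36.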

How the results depend on the processing

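No paired analysis was possible because each line has 1 library of each kind. Across 114 alternative values for 27 results, 33 of them added after seeing the data, 87 stayed within 1.5 times the reported count or within 0.1 of the reported median and 27 moved. No median changed sign. Counts were only labelled as staying or moving, so a turn in the balance of up and down could not show as a reversal. With a 1.5-fold limit, 24, 36 and 21 members were down in erCriz0, erAlec0 and erLor0, and 1 was up in erAlec0. Centring left 3 down in erCriz0, and the change over the regional median left 3 down in erCriz0 and 2 in erLor0. The median promoter change was 0.034 in erCriz0 and 0.48 in erLor0 after quantile normalization, 0.75 in erLor0 after centring, 0.75 in erAlec0 without shared promoters, and 0.055, 0.20 and 0.15 in erCriz0, erAlec0 and erLor0 as the mean over all paired peaks. Promoter peaks up numbered 0 (quantile), 1 (over the start base), 1 (not shared) and 0 (over the region) in erCriz0, 9 (over the region) in erAlec0, and 12 (centred), 3 (quantile) and 1 (over the region) in erLor0. Paired peaks down numbered 12, 12 and 9 within 5 kb in the 3 lines, 7 in erCriz0 with a minimum level, and 41 in erAlec0 after quantile normalization, where 36 were up. The cause of these shifts was not tested, apart from the looser limit and the smaller sets of peaks, which act by construction. Depth is unknown, so no counting error can be given.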
